A study of Pinellia ternata with 12 samples.

Results

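Described here are 2 unigenes matched to mavicyanin in leaves of Pinellia ternata, a medicinal herb of the arum family: TRINITY_DN71342_c3_g1 and TRINITY_DN65549_c0_g2. A unigene is a cluster of transcripts assembled from the reads without a genome, and both took their name from a match to mavicyanin of banana (Musa acuminata). They were 2 of 208217 unigenes in the expression table and 2 of the 68978 that averaged at least 1 TPM (a share of the transcripts of a library, adjusted for length) over the libraries. Both were taken from the pairs in which the study matched a miRNA higher under heat with a predicted target lower under heat, with hvu-miR6214 as the miRNA. They were thus chosen by the same contrast that is described here, so their levels and those of hvu-miR6214 are given as a description, with no test. The other unigenes were not searched for matches to mavicyanin, so more may exist.

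Leaf RNA of seedlings grown from tubers was sequenced in 3 libraries of heat-treated plants, kept at 40 ℃ for 24 h and labelled day 1, and in 3 libraries of control plants, kept at 25 ℃ with 0 h of heat and labelled day 0. Small RNA was sequenced in 3 heat and 3 control libraries as well. The plants were wild type, and each group is described as 3 biological replicates. A treatment tag reads heat-treated for all libraries, so the groups follow the titles, the sources and the days. Since the controls were taken at 0 h and the heat samples a day later, heat and time in the incubator cannot be told apart.

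Mavicyanin belongs to the phytocyanins, small blue copper proteins of plants that bind copper and pass electrons. It was first described in zucchini, and phytocyanins are mostly secreted or held at the cell surface, where their redox partners are largely unknown. In Arabidopsis, several blue copper proteins and laccases are targets of miR408 and miR397, miRNAs that build up when copper is scarce.

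The mature miRNA that links both unigenes in the pair table is shown first, because the pairing rests on its sequence, together with the only other listed miRNA that has its seed. Capitals mark the seed, bases 2 to 8 from the 5′ end, and in the complement they mark the bases that would face it. All are written 5′ to 3′ as the study lists them, except the complement, which was computed and is what a site matching every base would read. The site in either unigene is not printed here.
hvu-miR6214: cGACGACGacgagcacgaca
complement of hvu-miR6214: ugucgugcucguCGUCGUCg
mdm-miR535d: uGACGACGagagagagcacgc

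hvu-miR6214, named from barley (Hordeum vulgare), is 20 bases long, of which 13 are G or C and none is U, and the triplet CGA occurs 5 times in it. Of the 1597 miRNAs in the table, all with a sequence, 1 other carried the seed GACGACG. This was mdm-miR535d, named from apple (Malus domestica), which shared a stretch of 9 bases with hvu-miR6214, the longest shared by any listed miRNA.

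Some properties of the libraries bear on all values below. All RNA libraries had the same TPM total, so depth could not be read from the TPM values, and a level is a share of the library. Unigenes above 0 numbered 157432 to 170115 in heat libraries, against 146297 to 161927 in control libraries. In the part at hand of the study's list of unigenes that differed under heat, 11 were matched to potyvirus polyproteins. They summed to 606, 4409 and 3420 TPM in heat replicates 1, 2 and 3, against at most 0.0611 TPM in any control library. These 11 were thus chosen by this contrast, which favours such a difference, and other potyvirus unigenes may be missing. The median log2 difference of all tested unigenes was 0.167 above 0. Of 8 unigenes listed under photosynthesis terms, none was at 0 in every library and their sum was 144 to 263 TPM in heat libraries, against 129 to 166 TPM in control libraries. 5 of the 8 were tested and none was called (limma, 1 at an unadjusted p under 0.05), beside 4.05% lower and 6% higher of all tested unigenes. In 1 of the 5 every heat library lay above every control and in none below, beside 22% and 11.2% of all tested unigenes. In bulk leaf, fewer cells of a type and less RNA per cell cannot be told apart.

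TRINITY_DN71342_c3_g1 was the more abundant mavicyanin unigene. It had 89.4, 52.0 and 50.9 TPM in heat replicates 1 to 3, against 240.3, 254.9 and 228.7 TPM in control replicates 1 to 3. The groups did not overlap, the 3 controls lay close to each other, and heat replicate 1 was the heat library nearest to them. Its mean was 64.1 ± 21.9 TPM under heat and 241.3 ± 13.1 TPM in controls (SD, n = 3 each). The heat mean was 26.5% of the control mean, and the difference on the log2(TPM + 1) scale was −1.95. Its SE was 0.27 in the limma fit, which shares information on spread between unigenes, and the SD within groups on this scale was 0.33. Against the control mean, the heat libraries stood at −1.42, −2.19 and −2.22 on the log2 scale. Relative spread was wider under heat, with a coefficient of variation of 34.2% in heat libraries against 5.43% in control libraries.

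TRINITY_DN65549_c0_g2 stood at a lower level, again with heat replicate 1 as the highest heat library. It had 35.6, 14.3 and 14.6 TPM in heat replicates 1 to 3, against 68.6, 82.3 and 51.3 TPM in control replicates 1 to 3. Here too the groups did not overlap, but heat replicate 1 came closer to the lowest control than to the other heat libraries. The mean was 21.5 ± 12.2 TPM under heat and 67.4 ± 15.5 TPM in controls (SD, n = 3 each), so the heat mean was 31.9% of the control mean. The log2 difference was −1.71 (SE 0.36 in the limma fit), with an SD within groups of 0.56 on the log2(TPM + 1) scale. The heat libraries stood at −0.88, −2.13 and −2.11 against the control mean on the log2 scale, while the controls themselves ranged over −0.36 to 0.31. The coefficient of variation was 56.9% in heat libraries against 23.0% in control libraries.

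**Figure D1:**
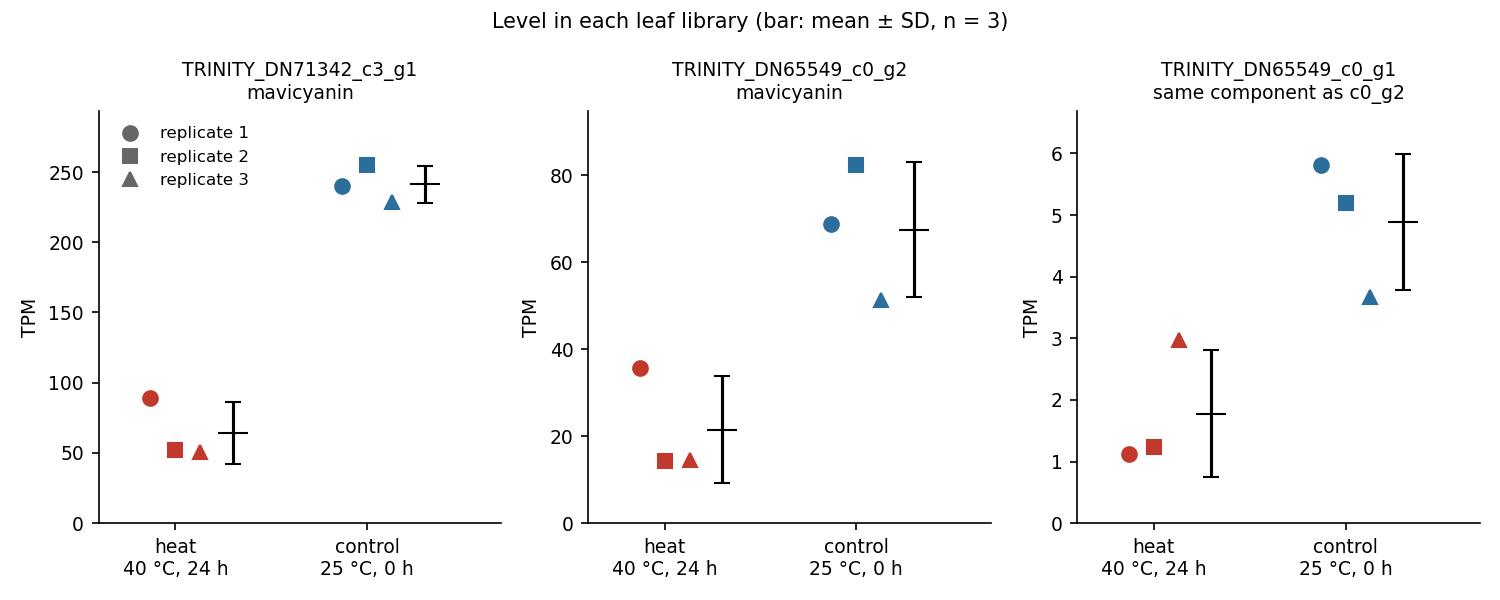
Level in TPM (vertical axes, from 0) of both mavicyanin unigenes and of TRINITY_DN65549_c0_g1 from the same assembly component, in 3 heat and 3 control leaf libraries. Symbols mark the replicate number and black bars the mean ± SD. In each of the 3 panels every heat library lies below every control library, and heat replicate 1 is the highest heat library in the mavicyanin panels but the lowest in the third.

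Both mavicyanin unigenes together made up 125.0, 66.3 and 65.4 TPM in heat replicates 1 to 3, against 309.0, 337.2 and 280.04 TPM in control replicates 1 to 3. Their summed mean was 85.6 ± 34.2 TPM under heat and 308.7 ± 28.6 TPM in controls (SD, n = 3 each). TRINITY_DN71342_c3_g1 was 2.51, 3.63 and 3.49 times TRINITY_DN65549_c0_g2 in heat replicates 1 to 3, against 3.50, 3.10 and 4.46 times in control replicates 1 to 3. These ratios overlapped between the groups, with means of 3.21 ± 0.611 under heat and 3.68 ± 0.697 in controls (SD, n = 3 each). The ratio was lowest in heat replicate 1, in which TRINITY_DN65549_c0_g2 was closest to its control level. Across the 6 libraries the log2 levels of the pair had a Pearson r of 0.970, a description over 2 groups of 3 in which both differ between the groups.

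Heat replicate 1 as the highest heat library was not particular to mavicyanin. Of the 2793 unigenes called lower under heat (limma, log2 difference over 1 in size at an adjusted p under 0.05, by Benjamini and Hochberg), it was the highest heat library for 1341, or 48.0%. Without heat replicate 1 the log2 difference was −2.21 for TRINITY_DN71342_c3_g1 and −2.12 for TRINITY_DN65549_c0_g2. Without heat replicate 2 it was −1.82 and −1.49 for the same unigenes, and without heat replicate 3 −1.81 and −1.50. Heat replicate 1 also had the smallest potyvirus sum of the heat libraries, and the part of this in the mavicyanin levels was not tested. With the potyvirus unigenes removed and the rest rescaled, the differences were −1.94 and −1.70.

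Within the libraries, both mavicyanin unigenes stood among the abundant leaf transcripts of control plants. TRINITY_DN71342_c3_g1 ranked 1160, 1990 and 2272 by TPM in heat replicates 1 to 3, against 366, 363 and 390 in control replicates 1 to 3. TRINITY_DN65549_c0_g2 ranked 3423, 8781 and 9816 in heat replicates 1 to 3, against 1444, 1239 and 2079 in control replicates 1 to 3. No rank of a heat library overlapped the control ranks of its unigene.

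The size of the differences can be read against the whole table. Of the 68978 tested unigenes, 4.05% were called lower and 6% higher under heat, and 11.2% had all heat libraries below all controls. A more negative log2 difference was found for 1.22% of tested unigenes in the case of TRINITY_DN71342_c3_g1 and for 1.76% in the case of TRINITY_DN65549_c0_g2. By the loss of mean level, 177.2 and 45.9 TPM, they were at places 175 and 581 of all tested unigenes. Among the 377 unigenes with a control mean at least that of TRINITY_DN71342_c3_g1, 99 were called lower (26.3%). Among the 1512 with one at least that of TRINITY_DN65549_c0_g2, 298 were (19.7%). Since the unigenes were chosen by this contrast, nothing was read from their own place in these shares.

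The direction of calls over the whole table depended on scaling, while that of mavicyanin did not. Of all calls, 59.7% were higher under heat with the TPM as deposited, 39.5% after rescaling by the median ratio and 45.3% after quantile normalization. With the median ratio the log2 difference was −2.19 for TRINITY_DN71342_c3_g1 and −1.95 for TRINITY_DN65549_c0_g2, and with quantile normalization it was −1.97 and −1.79. Relative to the median difference of all tested unigenes in the deposited values it was −2.11 and −1.87.

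Unigenes that share a DN number and component come from 1 cluster of overlapping reads in the assembly and can be fragments, alleles or close copies of the same gene, between which reads may be split. Component DN71342_c3 held no other unigene. Component DN65549_c0 held 2 more, of which TRINITY_DN65549_c0_g1 had 1.13, 1.24 and 2.97 TPM in heat replicates 1 to 3, against 5.81, 5.20 and 3.67 TPM in control replicates 1 to 3. Its groups did not overlap either, but heat replicate 3, not heat replicate 1, was nearest to the controls. Its log2 difference was −1.13 (SE 0.32) with an adjusted p of 0.0523 in limma, just short of a call. It was called after median-ratio rescaling (−1.31, adjusted p = 0.0214 in limma), after quantile normalization (−1.29, adjusted p = 0.0258) and without heat replicate 3 (−1.42, adjusted p = 0.0412). Over all its alternatives the adjusted p lay between 0.0214 and 0.155.

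The remaining unigene of the component, TRINITY_DN65549_c0_g3, had 0.324, 0.350 and 1.39 TPM in heat replicates 1 to 3, against 0.614, 0.313 and 1.16 TPM in control replicates 1 to 3, and was below the level needed for a test. The whole component summed to 37.1, 15.9 and 18.9 TPM in heat replicates 1 to 3, against 75.1, 87.8 and 56.2 TPM in control replicates 1 to 3. TRINITY_DN65549_c0_g2 supplied 96.1%, 90.0% and 76.9% of that sum in heat replicates 1 to 3, against 91.4%, 93.7% and 91.4% in control replicates 1 to 3. These shares overlapped, and the log2 difference of the sum was −1.64.

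The DN71342 number covered 3 further components that carry no mavicyanin name in the sources used here. TRINITY_DN71342_c2_g1 had 9.60, 6.17 and 10.1 TPM in heat replicates 1 to 3, against 7.42, 10.1 and 11.3 TPM in control replicates 1 to 3, with a log2 difference of −0.14 (SE 0.28, adjusted p = 0.769 in limma). TRINITY_DN71342_c0_g1 had 1.02, 1.02 and 0 TPM in heat replicates 1 to 3, against 2.24, 0.649 and 1.75 TPM in control replicates 1 to 3 (log2 difference −0.62, SE 0.39, adjusted p = 0.336). Both overlapped between the groups, and the last, TRINITY_DN71342_c1_g1, was below 1 TPM in every library. Of the 3 tested unigenes that share a DN number with mavicyanin, none was called in limma and 1, TRINITY_DN65549_c0_g1, had an unadjusted p under 0.05. Over all tested unigenes, 4.05% were called lower and 6% higher.

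hvu-miR6214, the predicted regulator of both unigenes, was a rare miRNA. It had 28.9, 16.7 and 10.2 RPM, scaled shares of the reads assigned to known miRNAs, in heat replicates 1 to 3, against 13.0, 4.90 and 5.74 RPM in control replicates 1 to 3. The groups overlapped, since heat replicate 3 lay below control replicate 1. The mean was 18.6 ± 9.52 RPM under heat and 7.88 ± 4.45 RPM in controls (SD, n = 3 each), a log2(RPM + 1) difference of 1.14. By mean level it was number 739 of the 1597 miRNAs.

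These levels rest on few reads. Dividing the RPM by the value of 1 read gave 30, 8 and 15 reads in heat replicates 1 to 3, against 12, 10 and 5 reads in control replicates 1 to 3, or 80 in all. The exact 95% interval (Clopper-Pearson) in heat libraries was 19.5 to 41.3, 7.21 to 32.9 and 5.69 to 16.8 RPM for replicates 1 to 3. In control libraries it was 6.71 to 22.7, 2.35 to 9.02 and 1.86 to 13.4 RPM for replicates 1 to 3. These intervals cover counting error only. The interval of heat replicate 1 lay above those of control replicates 2 and 3 and overlapped that of control replicate 1, and the intervals of heat replicates 2 and 3 each overlapped those of all 3 controls.

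**Figure D2:**
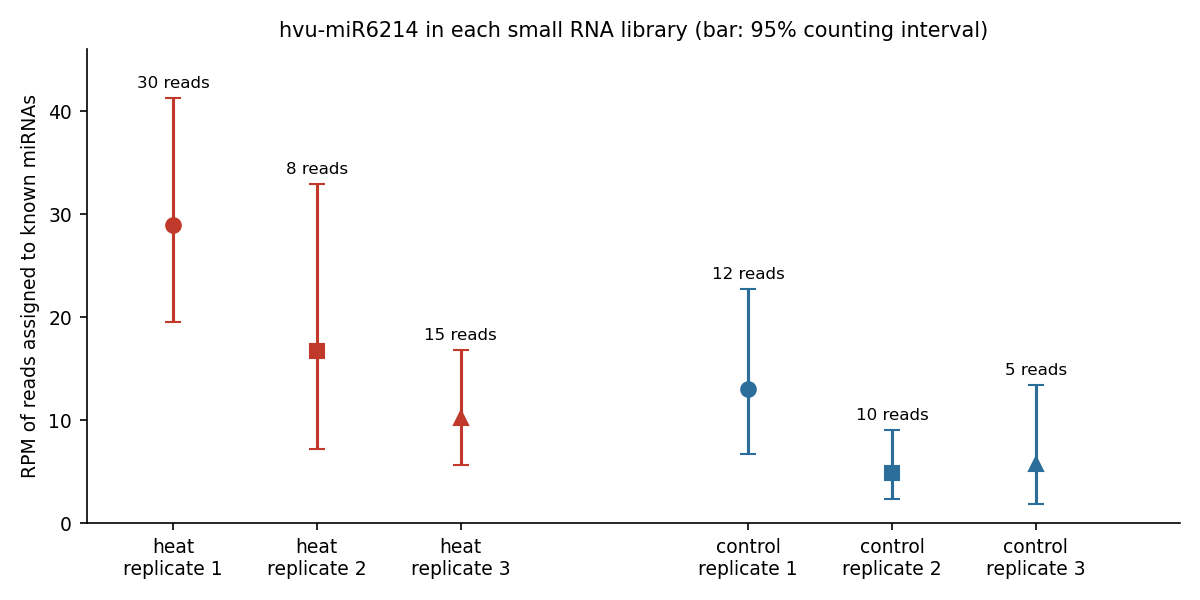
hvu-miR6214 in 3 heat and 3 control small RNA libraries, in RPM of the reads assigned to known miRNAs (vertical axis, from 0), with the number of reads above each point. Bars are exact 95% intervals for counting error. Heat replicate 1, at 28.9 RPM from 30 reads, is the highest library, and heat replicate 3 at 10.2 RPM lies below control replicate 1 at 13.0 RPM.

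The hvu-miR6214 difference was smallest without heat replicate 1, at 0.77 on the log2 scale, and among the 6 ways of leaving out a library it was largest without control replicate 1, at 1.52. On the recovered reads it was 1.60 with edgeR and 1.64 with DESeq2, and it was 1.36 after median-ratio rescaling of the RPM. All kept the same sign. In the small RNA libraries 2.13% of the miRNAs were called higher and 7.14% lower under heat (limma, unadjusted p under 0.05 and a log2 difference over 1 in size), and 1 of 1597 passed an adjusted p under 0.05. The heat library with the most hvu-miR6214 and the heat library with the most mavicyanin both carry the replicate number 1, but nothing in the labels says that an RNA and a small RNA library of 1 number came from the same plants.

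mdm-miR535d, which shares the seed shown above, was more abundant and was not part of the pair table for mavicyanin. It had 327, 296 and 353 RPM in heat replicates 1 to 3, against 368, 213 and 407 RPM in control replicates 1 to 3. The groups overlapped widely, and the log2 difference was 0.03 (SE 0.47, unadjusted p = 0.948, adjusted p = 0.989 in limma). Reads with this seed thus came mostly from mdm-miR535d in every library.

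The pair table matched 8 other unigenes with hvu-miR6214, and these too were selected on this contrast. Every heat library lay below every control library in 11.2% of all tested unigenes and, as their choice favours, in all 8 of these. Their median difference on the log2(TPM + 1) scale was −1.74 (range −2.57 to −1.12), against a median of −1.60 over all unigenes called lower. Adding 1 shrinks the change of low unigenes, and most of the 8 were low. With a pseudocount of 0.1 their median was −2.39 (range −4.11 to −1.18), beside −1.96 and −1.76 for the more abundant mavicyanin unigenes, so no order between the pairs and mavicyanin was read from these values. Their control means were 5.37 to 80.9 TPM, so TRINITY_DN71342_c3_g1 was the most abundant of the 10 unigenes in the group. Heat replicate 1 was the highest heat library in 3 of the 8.

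The most negative log2(TPM + 1) difference among these was that of TRINITY_DN39053_c0_g1, matched to PERK13, a receptor-like kinase with a proline-rich outer part. It had 0.927, 0 and 1.08 TPM in heat replicates 1 to 3, against 9.03, 6.52 and 10.2 TPM in control replicates 1 to 3. TRINITY_DN66656_c2_g2, matched to an enzyme that builds the xyloglucan backbone of the cell wall, had 1.76, 0.876 and 0.740 TPM in heat replicates 1 to 3, against 3.88, 5.06 and 12.4 TPM in control replicates 1 to 3. TRINITY_DN66595_c1_g1, matched to the subtilisin-like protease SBT1.7, had 3.34, 1.37 and 3.42 TPM in heat replicates 1 to 3, against 5.23, 6.94 and 8.49 TPM in control replicates 1 to 3.

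Among the other 5, TRINITY_DN56096_c0_g1, matched to a cytochrome P450, had 0.814, 0.866 and 1.25 TPM in heat replicates 1 to 3, against 7.36, 3.94 and 4.81 TPM in control replicates 1 to 3. TRINITY_DN72360_c2_g1, with no named match, was the only one near the level of TRINITY_DN65549_c0_g2. It had 55.1, 23.3 and 32.8 TPM in heat replicates 1 to 3, against 68.2, 66.5 and 108 TPM in control replicates 1 to 3, and heat replicate 1 was again closest to the controls.

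TRINITY_DN71342_c3_g1, but not TRINITY_DN65549_c0_g2, was listed by the study under the terms electron carrier activity and oxidation-reduction process, within its predicted miRNA targets. The 9 other unigenes listed there or under copper ion binding were all tested. None was called in limma (2 at an unadjusted p under 0.05), beside 4.05% lower and 6% higher of all tested unigenes. The median log2 difference of the 9 was −0.14 (range −0.93 to 0.99), against 0.167 over all tested unigenes. In 1 of the 9 every heat library lay below every control, beside 11.2% of all tested unigenes. In 3 of the 9 every heat library lay above, beside 22% of all tested unigenes. One of these, TRINITY_DN74571_c0_g1, is also the photosynthesis unigene with every heat library above every control, so these lists are not separate.

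The nearest to a call was the electron carrier unigene TRINITY_DN66583_c0_g3, whose heat libraries all lay above the controls. It had 17.2, 24.3 and 29.7 TPM in heat replicates 1 to 3, against 9.90, 11.3 and 12.5 TPM in control replicates 1 to 3. Its log2 difference of 0.99 (SE 0.26, adjusted p = 0.0402 in limma) fell just short of the required size of 1. It was called with a pseudocount of 0.1 (1.04, adjusted p = 0.0463) and without heat replicate 1 (1.19, adjusted p = 0.0157), and over its alternatives the adjusted p lay between 0.0157 and 0.144. The copper-binding unigene of the list, TRINITY_DN67678_c1_g1, had 5.65, 4.09 and 5.97 TPM in heat replicates 1 to 3, against 3.87, 4.07 and 4.98 TPM in control replicates 1 to 3. Its groups overlapped (log2 difference 0.23, SE 0.26, adjusted p = 0.610).

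**Figure D3:**
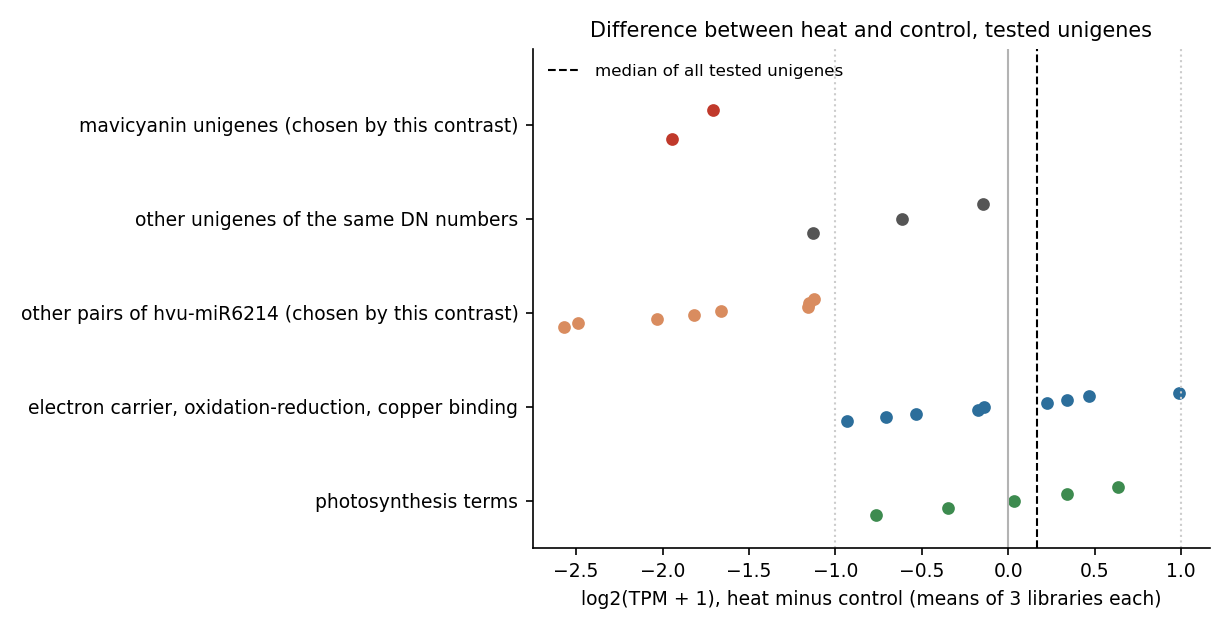
Difference between heat and control in log2(TPM + 1) (horizontal axis), 1 point per tested unigene of a set, for mavicyanin and 4 sets of other unigenes. TRINITY_DN74571_c0_g1 belongs to both the redox and the photosynthesis terms and is drawn in each. The dashed line is the median of all tested unigenes (0.167) and dotted lines mark a size of 1. The mavicyanin points at −1.95 and −1.71 lie within the range of the other hvu-miR6214 pairs, −2.57 to −1.12, and below all points of the redox and photosynthesis terms.

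Copper was also named in the annotation of 3 unigenes that the study lists as higher under heat, which were therefore chosen by their direction and are given without a test. TRINITY_DN66820_c0_g2, matched to CutA1, a protein linked to tolerance of copper and other divalent ions in bacteria, had 13.6, 14.7 and 17.4 TPM in heat replicates 1 to 3, against 8.08, 7.70 and 5.67 TPM in control replicates 1 to 3. Matches to glycine-rich RNA-binding proteins made up the rest, and their log2 differences were 1.71 for TRINITY_DN60082_c2_g1 and 1.87 for TRINITY_DN52549_c0_g1. Mavicyanin in controls was far above all 3 of these, whose control means were 1.08 to 7.15 TPM.

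The miRNAs known from other plants to act on copper proteins were read in the same small RNA libraries. These are miR397, miR398, miR408, miR528 and miR857, whose known targets include laccases, copper/zinc superoxide dismutases and blue copper proteins. The most abundant miR408 and miR528 of the table, with the seed in capitals, share no seed with hvu-miR6214.
smo-miR408: uGCACUGCcucuucccuggcug
osa-miR528-5p: uGGAAGGGgcaugcagaggag

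Of 41 listed miRNAs with these numbers, none was called higher and 3 were called lower under heat in limma at an unadjusted p under 0.05, and none passed an adjusted p under 0.05. The 3 lower calls of limma stand beside 7.14% of all miRNAs. edgeR on the recovered reads called 6 of the 41 lower and none higher, beside 9.2% lower and 3.19% higher of all miRNAs. DESeq2 called 3 lower and none higher, beside 6.06% lower and 3.96% higher of the 1517 miRNAs to which it gave a p; osa-miR398b was among the 3 of the 41 without one. The median log2 difference of the 41 was −0.45 in limma. The limma calls were osa-miR398b (log2 difference −5.23), lus-miR398f (−3.31) and ath-miR408-3p (−4.70). They leaned on control replicate 2: osa-miR398b had 20.2, 12.5 and 0 RPM in heat replicates 1 to 3, against 93.1, 2218 and 72.3 RPM in control replicates 1 to 3. ath-miR408-3p had 3.86, 0 and 1.36 RPM in heat replicates 1 to 3, against 54.1, 1101 and 2.29 RPM in control replicates 1 to 3, and its groups overlapped. Without control replicate 2 none of the 41 was called lower in limma, beside 71 lower calls over all miRNAs. The full set of libraries gave 114 over all miRNAs. In that smaller set osa-miR398b still differed by −3.65 (unadjusted p = 0.0674), and its other control values lay above all its heat values. lus-miR398f had 10.6, 2.09 and 2.71 RPM in heat replicates 1 to 3, against 19.5, 306 and 19.5 RPM in control replicates 1 to 3. Its values in control replicates 1 and 3 also lay above all its heat values. Without heat replicate 3 the count of lower calls among the 41 was 1, beside 72 over all miRNAs. Leaving out control replicate 3 gave 8 among the 41, beside 171 over all miRNAs. Both counts thus moved in the same direction as those of the whole table. Without heat replicate 1, zma-miR397a-5p was called higher (1.94, unadjusted p = 0.0102), on at most 4.17 RPM in any library. Higher calls over all miRNAs then numbered 44.

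smo-miR408, whose family acts on blue copper proteins in Arabidopsis, had 260, 1339 and 205 RPM in heat replicates 1 to 3, against 940, 660 and 556 RPM in control replicates 1 to 3. Heat replicate 2 was the highest and the other heat libraries the lowest of the 6, and the log2 difference was −0.75 (SE 0.74, unadjusted p = 0.338, adjusted p = 0.761 in limma). It was called lower only without heat replicate 2 (−1.60, unadjusted p = 0.0165), and no other alternative called it. osa-miR528-5p had 558, 899 and 184 RPM in heat replicates 1 to 3, against 2921, 998 and 582 RPM in control replicates 1 to 3. It overlapped between the groups as well (log2 difference −1.40, SE 0.79, unadjusted p = 0.114, adjusted p = 0.605).

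Other unigenes had a pattern over the libraries closer to mavicyanin than the mavicyanin unigenes had to each other. Likeness was measured as Pearson r of log2(TPM + 1) over the 6 libraries against 68977 tested unigenes, and it is a description in which the difference between the groups weighs most. For TRINITY_DN71342_c3_g1 the highest were TRINITY_DN71520_c2_g2 (r = 0.998), TRINITY_DN68895_c2_g2, TRINITY_DN72604_c1_g3, TRINITY_DN75607_c4_g3 and TRINITY_DN52195_c2_g1 (r = 0.997 for these 4), none with an annotation in the sources used here. TRINITY_DN68895_c2_g2 was the most abundant of them, with 471, 340 and 304 TPM in heat replicates 1 to 3, against 942, 923 and 922 TPM in control replicates 1 to 3. The other mavicyanin unigene came at place 358.

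For TRINITY_DN65549_c0_g2 the highest were TRINITY_DN52475_c0_g1, TRINITY_DN70111_c1_g1 and TRINITY_DN50005_c0_g1 (r = 0.999), then TRINITY_DN59147_c1_g2 and TRINITY_DN69446_c1_g1 (r = 0.996), and TRINITY_DN71342_c3_g1 came at place 219. TRINITY_DN69446_c1_g1 was close to it in level too, with 31.5, 15.6 and 16.0 TPM in heat replicates 1 to 3, against 62.2, 66.2 and 50.1 TPM in control replicates 1 to 3. Within the whole pair table of the study, the closest to TRINITY_DN71342_c3_g1 was TRINITY_DN62698_c0_g1 (r = 0.974), another pair of hvu-miR6214 matched to a serine-rich protein. The closest to TRINITY_DN65549_c0_g2 was TRINITY_DN54254_c1_g1 (r = 0.976), an uncharacterized protein paired with another miRNA.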

How the data were processed

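For RNA, the authors made strand-specific libraries, assembled unigenes with Trinity, estimated abundance with Salmon and deposited TPM values. For small RNA, the authors matched reads to mature miRNAs known from other species and deposited them as RPM values, shares of the reads so assigned. Targets had been predicted by the authors from complementarity alone. Versions of Salmon and of the aligners are not given in the sources used here.

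Unigenes averaging 1 TPM or more entered a limma fit (version 3.58.1, R 4.3.3; trended eBayes) of log2(TPM + 1), heat against control, 3 libraries each. A call needed a log2 difference over 1 in size and a p under 0.05 after adjustment by Benjamini and Hochberg. These fold changes understate the change of low unigenes. miRNAs were fitted likewise on log2(RPM + 1) and called at an unadjusted p under 0.05, after the authors' screen. Dividing RPM by the value of 1 read (0.490 to 2.09 RPM) returned whole reads for 9582 of 9582 values within 0.01, or 100.0%. These came to 479324 to 1475482 reads in heat libraries and 871814 to 2039055 in control libraries, and were tested with edgeR 4.0.16 (51 miRNAs higher, 147 lower) and DESeq2 1.42.0. The study reports total reads for the RNA libraries, but the TPM values hold no reads per unigene. Intervals were therefore computed for miRNA reads only. The procedure was tested on simulated data.

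The members and gene lists were chosen with earlier results of these data known. Named items were both unigenes, unigenes of the same DN number, pairs of hvu-miR6214, unigenes that the study listed under redox, copper and photosynthesis terms, miRNAs with its seed or of the 5 copper-linked numbers (the most abundant of each and the calls), and the 5 most alike by Pearson r. Alternatives were other pseudocounts, filters, scalings, component sums, a block for the replicate number and leaving out each library.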

Additional observations from a re-analysis of the deposited data

How the results depend on the processing

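The log2 differences of both mavicyanin unigenes and of hvu-miR6214 kept their sign and moved by less than the spread between replicates under every alternative tried. With each library left out in turn they ran from −2.21 to −1.81 for TRINITY_DN71342_c3_g1, from −2.12 to −1.49 for TRINITY_DN65549_c0_g2 and from 0.77 to 1.52 for hvu-miR6214. Counts over the whole table, which serve as background, moved more. Unigenes called higher numbered 4142, against 845 with no filter, 2634 when the higher group had to average 5 TPM, 2729 after median-ratio rescaling and 1468 to 6303 with a library left out. Unigenes called lower numbered 2793, against 804 with no filter, 1715 over component sums, 3590 after quantile normalization, 4184 after median-ratio rescaling and 1336 to 3751 with a library left out. miRNAs called higher numbered 34, against 60 with DESeq2, 57 with median-ratio rescaling, 51 with edgeR and 19 to 44 with a library left out, and those called lower numbered 114, against 63 to 171 with a library left out. The cause of these shifts was not tested, and leaving out a library also lowers the number of samples.

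With the replicate number as a block (replicate block), 3296 unigenes were called higher and 2479 lower, and 28 miRNAs higher and 97 lower. Same-numbered libraries did not deviate together, with correlations of −0.135, −0.0562 and 0.145 in RNA and −0.0737, 0.0717 and −0.0885 in small RNA for numbers 1 to 3, so the numbers were not taken as pairs. Depth limits hvu-miR6214, which had 5 to 30 reads per library, and the TPM values carry no depth for the unigenes.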
